A study of Mus musculus with 4 samples.

Results

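Chemokines and their receptors were followed as a gene family across cells of mouse pancreatic islets. A gene was a member when its symbol was Ccl, Cxcl, Ccr or Cxcr followed by a digit, or one of Cx3cl1, Cx3cr1, Xcl1, Xcr1 and Ackr1 to Ackr4. The rule took 62 symbols, which carried 67 of the 30905 gene IDs in the tables: 39 ligands, 19 receptors and 4 atypical receptors. Of these, 44 reached a level of 10 CPM (a scale of UMIs defined with the depths) and 30 UMIs in at least 1 cell class of 50 or more cells (29 ligands, 12 receptors and 3 atypical receptors). Another 12 had UMIs but stayed below that level, the one with most being Xcr1 at 746 UMIs over the 4 libraries, most of them in a cluster without a name. The other 6 (Ccl21b, Ccl21c, Ccl26, Ccl27, Ccl27b and Ccr1l1) had 0 UMIs in all 4 libraries.

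The series holds 4 droplet single-cell RNA libraries of islet cells, 1 per group: a normal control (postnatal day 98), early db/db (day 70), late db/db (day 98) and late db/db with an intervention (day 98). The db/db mouse lacks a working long leptin receptor and becomes obese and diabetic. The labels give the genotype of every library as db/db on C57BL/KsJ, the normal control included, whereas the growth text lists C57BL/6 animals too, which leaves the control's strain unclear. They state that db/db mice were male and were kept until hyperglycaemic, and they do not describe the intervention. Nothing in them says whether animals were pooled. With 1 library per group no difference between groups could be tested, and all intervals below cover counting error only. Age and stage cannot be told apart for early db/db, whose mice were younger than those of any other group.

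Chemokines are small secreted proteins that guide cell movement through G protein-coupled receptors on the receiving cell. They fall into the CC, CXC, C and CX3C groups by the spacing of conserved cysteines, while atypical receptors bind chemokines without classical signalling and clear or transport them. In lymphoid tissue, stromal cells make CCL19 and CCL21, which draw CCR7-bearing T cells and mature dendritic cells, and CXCL13, which draws CXCR5-bearing B cells. CXCL12, made by stroma and endothelium, acts through CXCR4. Islets are also known for resident macrophages that carry CX3CR1.

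Libraries of 4458, 4616, 5983 and 4906 kept cells (control, early, late and intervention) entered the comparisons. Their median depths were 25984, 14563, 6201 and 26385.5 UMIs per cell, and pairs of libraries shared 8 to 21 cell barcodes. Cell classes were rebuilt from clusters and marker genes and are called "-like" for that reason. The late db/db library stood apart in its makeup: T and NK-like cells were 36.7% of its kept cells and B-like cells 31.1%, compared with shares of 0.269% and 0.247% for the control library, 2.69% and 4.94% for early db/db, and 0.55% and 0.143% for the intervention library. Levels are given as CPM, a gene's UMIs per 1000000 UMIs other than those of mitochondrial genes and of the 7 hormone genes (Gcg, Sst, Iapp, Ppy, Pyy and both insulin genes). Markers of lymphoid tissue moved with these shares: Glycam1, known from the high endothelial venules of lymph nodes, read 0.0365 CPM over all control cells and 768 over all late cells. Whether lymphoid tissue beside the islets was taken along with the late sample was not tested, so late values are those of the library and cannot be assigned to cells inside islets. One 3′ tag is counted per molecule, so gene length does not enter the scale.

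Some pairs of ligand genes that lie side by side carry much of what follows: Ccl21a and Ccl19 on chromosome 4, and Cxcl9 with Cxcl10 and Cxcl1 with Cxcl2 on chromosome 5. The sequences before the RefSeq start sites of these genes are shown because the members of a pair were high together in some cells and apart in others. The 250 bases before each RefSeq start site (GRCm38.p6) are printed 5′ to 3′ on the gene's strand, with matches of the searched motifs in capitals: the kappaB consensus, the core of the interferon-stimulated response element (GAAA, NN, GAAA), the palindrome TTCNNNGAA and TATAAA, each on both strands. The windows are, in order, chr4:42773992-42774241 and chr4:42756366-42756615 (minus strand), chr5:92328080-92328329 and chr5:92348890-92349139 (minus strand), and chr5:90890995-90891244 and chr5:90903649-90903898 (plus strand).
Ccl21a: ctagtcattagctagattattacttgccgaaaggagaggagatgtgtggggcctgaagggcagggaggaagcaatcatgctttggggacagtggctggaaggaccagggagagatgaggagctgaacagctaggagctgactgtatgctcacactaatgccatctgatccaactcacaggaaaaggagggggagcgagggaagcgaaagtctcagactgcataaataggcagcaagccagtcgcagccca
Ccl19: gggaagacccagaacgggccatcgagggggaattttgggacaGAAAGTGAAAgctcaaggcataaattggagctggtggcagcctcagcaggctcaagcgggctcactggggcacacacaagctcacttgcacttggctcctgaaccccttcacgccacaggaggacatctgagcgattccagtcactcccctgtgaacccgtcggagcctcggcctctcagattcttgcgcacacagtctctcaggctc
Cxcl9: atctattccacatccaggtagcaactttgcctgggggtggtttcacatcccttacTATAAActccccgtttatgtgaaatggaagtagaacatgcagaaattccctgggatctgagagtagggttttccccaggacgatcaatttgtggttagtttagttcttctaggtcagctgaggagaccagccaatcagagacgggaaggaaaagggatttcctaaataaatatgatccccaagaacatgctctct
Cxcl10: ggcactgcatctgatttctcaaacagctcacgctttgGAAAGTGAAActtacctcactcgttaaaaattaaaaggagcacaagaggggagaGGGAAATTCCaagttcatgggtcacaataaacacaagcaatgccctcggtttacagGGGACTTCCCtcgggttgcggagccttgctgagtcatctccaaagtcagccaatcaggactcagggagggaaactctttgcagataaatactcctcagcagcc
Cxcl1: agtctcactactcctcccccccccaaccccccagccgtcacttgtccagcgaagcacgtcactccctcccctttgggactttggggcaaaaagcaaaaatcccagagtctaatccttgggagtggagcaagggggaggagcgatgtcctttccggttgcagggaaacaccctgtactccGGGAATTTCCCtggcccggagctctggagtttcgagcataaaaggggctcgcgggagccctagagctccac
Cxcl2: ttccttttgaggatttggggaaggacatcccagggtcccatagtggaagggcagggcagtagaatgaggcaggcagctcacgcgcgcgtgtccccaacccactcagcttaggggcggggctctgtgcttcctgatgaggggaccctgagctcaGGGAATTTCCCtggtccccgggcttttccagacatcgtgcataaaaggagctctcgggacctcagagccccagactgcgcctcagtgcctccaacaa

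None of the 4 motifs was found in the Ccl21a window. In the Ccl19 window the interferon element core lay 208 to 199 bases before the start. The Ccl19 gene span given below (chr4:42754525-42756577) comes from another annotation, reaches into this window and covers the core. For Ccl19 the core is thus upstream of the RefSeq start only. The Cxcl10 window held the same core at 213 to 204 bases and kappaB matches at 159 to 150 and at 103 to 94 bases, whereas the Cxcl9 window held only TATAAA at 195 to 190 bases. The windows of Cxcl1 and Cxcl2 each held a palindromic kappaB match on both strands, with first bases 71 and 97 bases before the start. RefSeq windows were found for 47 of the 62 symbols (54 windows). The kappaB consensus was in 9 of those 54 windows (16.7%) and in 3.9% of all 32851 windows of that length. The interferon element core was in 3 (Ccl19, Cxcl10 and Cxcl14) against 2.98% of all windows, TTCNNNGAA in 4 against 7.02%, and TATAAA in 15 against 12.4%. These matches describe letters only.

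Summed over all kept cells, the 62 genes made 169.5 CPM in the control and 128 with intervention, against 614 in the early and 2479 in the late db/db library. Ligands made most of each sum (143, 545, 2168 and 111 CPM), receptors less (19.4, 53.3, 302 and 11.5 CPM), and atypical receptors least (6.67, 16.3, 9.02 and 4.75 CPM). Late db/db was thus highest for ligands and receptors, early db/db for atypical receptors, and the intervention library lowest for all 3. In such sums, fewer cells of a type and less RNA per cell cannot be told apart.

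The ligand with most UMIs was Ccl21a (chr4:42772860-42773993), a lymphoid-stroma and lymphatic ligand of CCR7, with 0, 0.245, 1249 and 2.54 CPM in the control, early, late and intervention libraries. Only the late library was high. The late level was at least 22802-fold above the control, which had 0 UMIs against 82361. Its mate Ccl19 (chr4:42754525-42756577) read 1.15, 14.2, 116 and 2.11 CPM, a log2 difference of 6.66 [6.30, 7.04] between late and control. The receptor of both, Ccr7 (chr11:99144196-99155077), read 0.603, 7.49, 139.8 and 0.501 CPM, with late db/db highest and early db/db next.

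Ccl5, a ligand known from effector T cells (chr11:83525778-83530518) read 3.54, 50.8, 310.4 and 6.79 CPM in control, early, late and intervention. Cxcl12 (chr6:117168535-117181367) read 7.09, 35.6, 125 and 4.32 CPM. Both were highest in late db/db and second in early db/db. Cxcl13 (chr5:95956951-95961068), the B cell attractant, read 1.19, 93.3, 54.5 and 0.656 CPM and was therefore highest in early db/db. Its early UMIs lay mostly in a few fibroblast-like cells, described below. Cxcl14, a ligand expressed in many epithelia and stromal cells, read 2.56, 61.1, 7.78 and 5.66 CPM, and the neutrophil attractant Cxcl2 read 3.23, 24.8, 7.83 and 2.26 CPM. Both were likewise highest in early db/db. Ccl4, a ligand made by activated macrophages, read 16.6, 34.4, 14.4 and 7.36 CPM.

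Against the control, 23 of the 28 members that entered (10 CPM in the higher library, 30 UMIs in both together) lay 2-fold or more above it in late db/db and 2 lay 2-fold or more below. Over all genes 10.1% were 2-fold higher and 16.5% 2-fold lower. The median log2 difference was 5.62 over these members and -0.40 over all genes. A member far below 10 CPM in the control could enter only through the late library, and then had to count as higher. The count and the median over members therefore follow in part from the entry rule, which was the same for all genes. The 2 lower members were Ccl27a, a ligand of skin-homing T cells (35.2 to 16.3 CPM, log2 -1.11), and Cx3cl1, the membrane-bound ligand fractalkine (13.1 to 6.16 CPM, log2 -1.09). Neither stayed 2-fold lower when all UMIs were the denominator (-0.34 and -0.32) or with TMM scaling (-0.71 and -0.69). The receptors Cxcr4, Ccr6, Ccr9, Cxcr3, Cxcr5, Cxcr6 and Xcr1 were all among the higher ones. Their log2 differences ran from 3.63 (Cxcr4) to 9.48 (Ccr6). Ccl22 and Ccl7 had 0 UMIs in the control and lay at least 397-fold and at least 357-fold above it in late db/db.

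The early library had 14 of 20 members that entered at least 2-fold above the control and 0 at least 2-fold below, where all genes gave 6.88% higher and 10.1% lower. The called member with most UMIs was Cxcl13 (log2 6.30 [5.94, 6.67]), followed by Cxcl14 (4.58 [4.33, 4.83]) and Ccl5 (3.84 [3.63, 4.06]). The early Cxcl13 UMIs lay mostly in a few fibroblast-like cells, and its ratio rests on those cells. Ccl4, Ccl3, Ccl6, Cxcl2 and Cxcl1, all products of myeloid cells among others, were higher by 1.05, 1.25, 1.73, 2.94 and 5.21 on the log2 scale. With intervention, 0 of 27 members were 2-fold above late db/db and 23 were 2-fold below, where all genes gave 7.24% higher and 11.1% lower. Ccl21a differed by -8.94 [-9.19, -8.71] and Ccr7 by -8.12 [-8.70, -7.60], while Ccl27a (0.27), Ccl28 (0.54), Ccl25 (-0.01) and Ccl4 (-0.97) were within 2-fold. With all UMIs as denominator or TMM scaling Ccl4 passed it (-1.57 and -1.14). The comparisons of late with control and of intervention with late share the late library, so neither supports the other. In these and the later counts, too, members could enter through the library where they were high, so the counts follow in part from the entry rule.

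**Figure D1:**
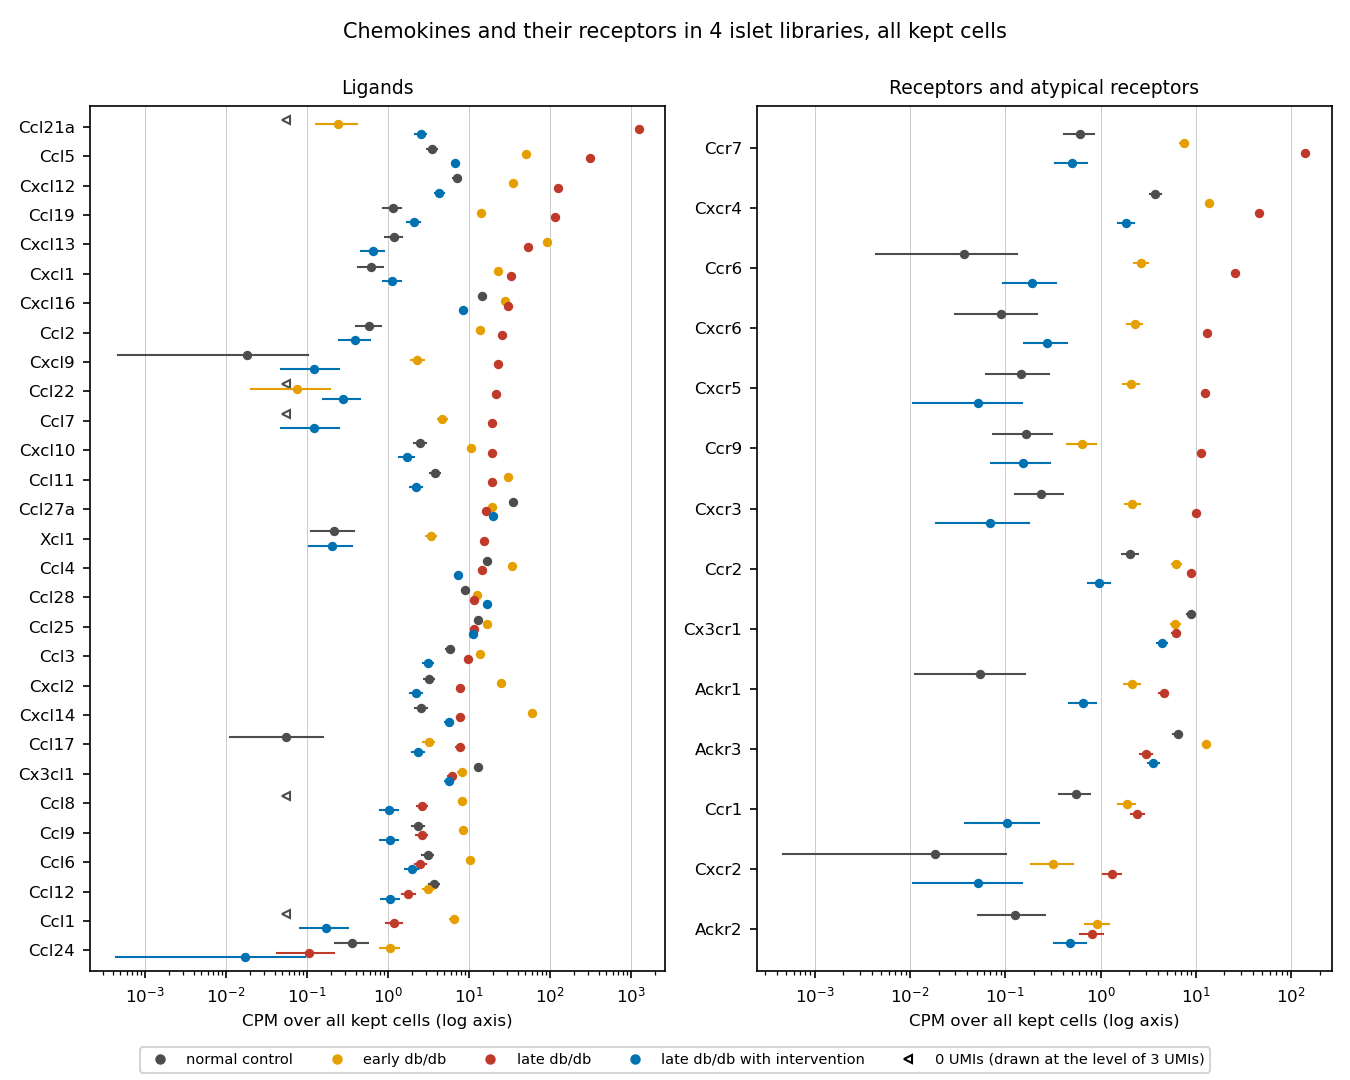
Level of 43 of the 44 measured members over all kept cells (CPM, log axis), ligands left and receptors right, 1 point per library, bars being exact Poisson 95% intervals of the count. Late db/db is the right-most point for Ccl21a (1249 CPM) and Ccr7 (139.8 CPM), early db/db for Cxcl13 (93.3 CPM) and Cxcl14 (61.1 CPM). The early Cxcl13 UMIs lay mostly in a few cells. An open triangle marks a library with 0 UMIs.

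Fibroblast-like cells held most of the late library's Ccl21a, Cxcl12, Ccl19 and Cxcl13 UMIs (89.2%, 93.9%, 94.2% and 93.7%). They numbered 30 in the control, which is too few to compare, 242 in early, 162 in late and 69 in intervention db/db. Ccl21a read 2.64 CPM [0.72, 6.76] in early, 33972 [33726, 34218] in late and 0 [0, 11.8] in intervention cells. With every cell thinned to 2000 UMIs, 1 of 223 early cells (0.448%), 120 of 155 late cells (77.4% [70, 83.7]) and 0 of 59 intervention cells held a Ccl21a UMI. Unthinned, the shares were 0.413%, 82.1% and 0, at median depths of 5299, 13704 and 5044 UMIs. The late fibroblast-like cells stood far above both other libraries.

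Free RNA was visible for this gene. Late beta-, alpha- and delta-like cells, which should lack Ccl21a, read 26.8, 26.9 and 21.3 CPM, and 2.25% of thinned late beta-like cells held a UMI (54.7% unthinned, at a median of 85865 UMIs). The late B-like (27.4 CPM), T and NK-like (19.9), dendritic-like (38.9) and macrophage-like cells (46.9) were near that level. Calls of Ccl21a in those classes are therefore read as background. All UMIs were counted under 1 Ccl21a gene ID, and its transcript matched that of Ccl21b over 402 aligned bases at 99.5% identity, so these copies cannot be told apart.

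Of 20 members that entered in fibroblast-like cells, 9 were at least 2-fold higher in late than in early db/db and 5 at least 2-fold lower. All genes gave 10.7% higher and 10.5% lower. Cxcl12 read 725 CPM in early, 3568 in late and 336 in intervention cells (late against early 2.30 [2.21, 2.39]). Ccl19 read 354, 3335 and 278 CPM (3.24 [3.11, 3.37]). In both, late db/db was highest and intervention lowest. The monocyte attractants Ccl2 (135, 711 and 3.2 CPM) and Ccl7 (84.5, 569.8 and 0 CPM) had the same order.

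The interferon-inducible CXCR3 ligands Cxcl9 (46.2, 169.7 and 0 CPM) and Cxcl10 (78.6, 278 and 0 CPM) were higher in late than in early fibroblast-like cells by 1.88 and 1.82 on the log2 scale, so this neighbouring pair lay together here. Cxcl1, the CXCR2 ligand, read 359, 851 and 51.1 CPM. The opposite direction was seen for Cxcl14, at 1880.4, 191 and 179 CPM (-3.30 [-3.46, -3.15]), and for the scavenging receptor Ackr3, at 31, 6.01 and 22.4 CPM (-2.37). Cx3cl1 was lower by 1.91 in late db/db, and Ccl24 had 34 UMIs in early and 0 in late db/db, at least 16.2-fold lower. The eosinophil attractant Ccl11 read 799, 525 and 316 CPM and was within 2-fold (-0.61). Ccl5 was 1.54 higher [0.31, 2.97] on 29 against 7 UMIs. That direction reversed without doublet removal (-2.0) and after subtraction of free RNA (-1.53).

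Cxcl13 rested on few cells. It read 3215 CPM in early, 1557 in late and 0 in intervention fibroblast-like cells (late against early -1.05 [-1.11, -0.98]). In early db/db 15 of 242 cells held it, 1 of them with 38.2% of the UMIs and 5 with 88.5%. In late db/db 1 cell held 25% and 49 of 162 cells held a UMI. The higher early level was thus carried by fewer cells.

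Different clusters held the fibroblast-like cells of the early and late libraries. Cluster 15 held 225 of the 242 early cells and cluster 27 held 126 of the 162 late ones, and Apoe, C3, Mfge8, Clu and Dcn led cluster 27. In late cells of cluster 27, Ccl21a read 38827, Cxcl12 3807, Ccl19 3786 and Cxcl13 1778 CPM. In its 17 early cells Cxcl13 read 14021 and Cxcl12 1544 CPM. In cluster 15 Cxcl14 read 515 CPM in 30 control cells, 2191 in 225 early cells and 1424 in 36 late cells, and Ccl11 read 981, 931 and 1184 CPM. Within that cluster, then, late Cxcl14 lay between the control and early values.

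Markers of lymphoid reticular stroma moved with these values. The 7-gene list (Pdpn, Bst1, Il7, Madcam1, Tnfsf11, Enpp2, Coch) summed to 334 CPM in early fibroblast-like cells (6 of 7 detected, Tnfsf11 at 0), 2212 in late (7 of 7) and 47.9 with intervention (3 of 7). The 7-gene fibroblast list summed to 30956, 11355 and 36790.2 CPM, all genes detected in each library. Immediate-early genes summed to 15840.1, 14840.4 and 5716 CPM, and acinar genes to 3668, 651 and 645 CPM. The part of these markers in the ligand differences was not tested.

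**Figure D2:**
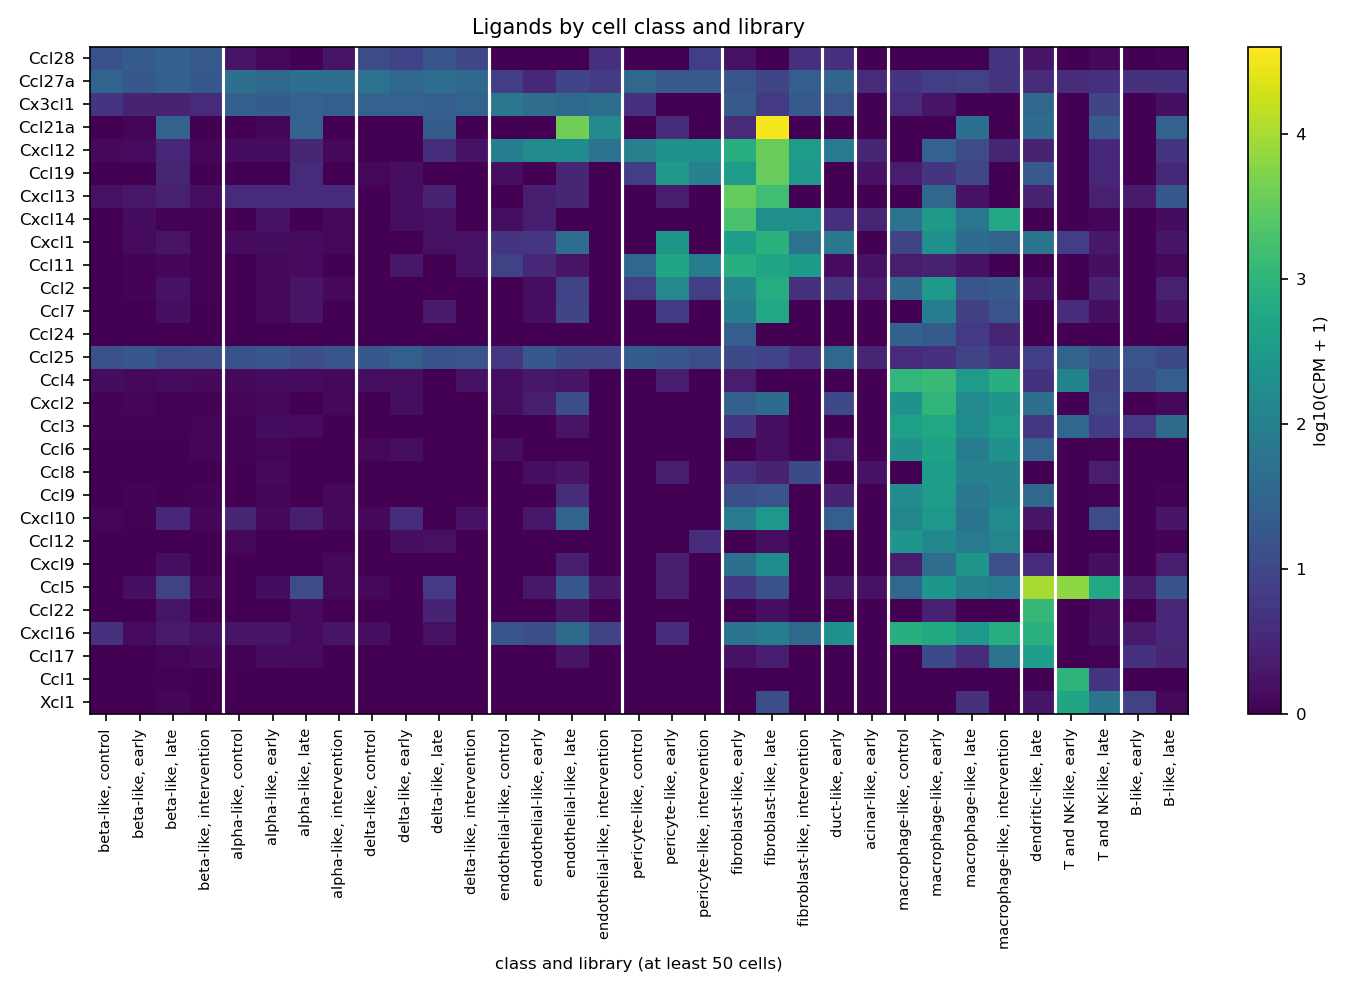
Levels of the 29 measured ligands, as log10 of CPM plus 1, in each cell class and library with at least 50 cells, white lines separating classes. The brightest cell is Ccl21a in late fibroblast-like cells (33972 CPM), followed among ligands by Ccl5 in late dendritic-like cells (10079.8 CPM), and Ccl27a and Ccl25 are spread over many classes.

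Endothelial-like cells (208 control, 423 early, 124 late, 222 intervention) showed a second, smaller source of Ccl21a. They read 0, 0, 3931 [3827, 4037] and 160.1 [135, 188] CPM in that order, so only the late library was high and the intervention library held some. In the late library 30 of 124 cells had a Ccl21a UMI, and late against control the difference was at least 2695-fold. The 147 intervention UMIs lay in 2 cells, both with Lyve1 and Mmrn1 UMIs and 1 with Prox1, which mark lymphatic endothelium.

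Of 10 members that entered, 6 were 2-fold or more higher in late than in control endothelial-like cells and 1 was lower. All genes gave 8.6% higher and 8.59% lower. Ackr1, the venular Duffy receptor that carries chemokines across endothelium, read 0.486, 49, 199 and 31.6 CPM in control, early, late and intervention (late against control 8.68 [6.19, 13.99], on 1 control UMI). Ackr2, a scavenger of inflammatory CC chemokines, read 2.43, 22.1, 32.8 and 30.5 CPM. The control was lowest for both atypical receptors. Cxcr4 went the other way, at 53, 20.7, 11.6 and 27.2 CPM (late against control -2.19 [-3.04, -1.42]).

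Cxcl12 (93.8, 165, 172 and 50.1 CPM), Ackr3 (119, 133, 60.4 and 99.1 CPM) and Cx3cl1 (67.6, 42.8, 36.4 and 44.7 CPM) were within 2-fold of the control in late endothelial-like cells, at 0.87, -0.97 and -0.89. Cxcl1 read 3.89, 4.32, 42.9 and 0 CPM and Cxcl16, a membrane-bound ligand of CXCR6, 16, 12, 38.6 and 7.63 CPM. Cxcl10 had 0 control UMIs and read 29.1 CPM in late db/db. Most late UMIs of Cxcl1 and Cxcl16 were in cluster 12, and under several alternative settings their direction reversed (to -0.52 for Cxcl1 and -0.15 for Cxcl16 under the stricter cell filter).

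The control endothelial-like cells were mostly in cluster 8 (166 cells), those of early and intervention in cluster 11 (423 and 220), and the late ones in clusters 11 (78) and 12 (46). Cluster 12 held cells of distinct kinds. Its 22 cells with at least 1% of UMIs from Glycam1, a marker of high endothelial venules, held 98.6% of its Ccl21a UMIs, 83.1% of its Ackr1 and 96.3% of its Madcam1. Another 21 cells with a Prox1 UMI held 93.2% of its Cxcl1, 100% of its Cxcl10, 86% of its Cxcl16, 84.2% of its Ackr4 and 88% of its Lyve1. The member counts behind these shares were small. They were 55 UMIs in 10 cells for Cxcl1, 39 in 4 for Cxcl10, 37 in 16 for Cxcl16 and 16 in 4 for Ackr4. These splits were made after the values were seen. With clusters that came mostly from late db/db left out, 2 of 5 members that entered were 2-fold apart, 1 in each direction, beside 308 higher and 501 lower of 8057 genes. The reticular stroma list read 32.1 CPM in control endothelial-like cells (3 of 7 genes, Pdpn, Madcam1, Tnfsf11 and Coch at 0), 101 and 93.7 in early and intervention, and 2946 in late db/db (7 of 7), and the lymphatic list 226, 175, 295 and 1433 CPM. Madcam1, a gene of the reticular stroma list, had 2354 UMIs (4458 CPM) in the 22 Glycam1-rich cells. The late sum of that list therefore need not mean reticular stroma among these cells. The part of the 2 lists in the differences was not tested.

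Macrophage-like cells (83 control, 184 early, 127 late, 97 intervention) held 50.8% to 93.3% of each library's Ccl4 UMIs and 93.8% to 98.8% of its Cx3cr1 UMIs. Against the control, 14 of 23 members that entered were at least 2-fold higher in early db/db and 1 lower, where all genes gave 10.9% higher and 3.23% lower. In late db/db 8 of 23 were higher (Ccl21a at its background level among them) and 9 lower, where all genes gave 18.1% and 4.57%. With intervention 3 of 17 were higher and 3 lower, where all genes gave 6.5% and 2.56%. With TMM scaling that last split was 2 higher and 4 lower, moving the higher share from 50% to 33.3%.

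The inflammatory ligand Ccl4 read 1092 [1019, 1168] CPM in control, 1337 [1273, 1404] in early, 343 [313, 375] in late and 758 [683, 839] in intervention macrophage-like cells. Late db/db was lowest (late against control -1.67 [-1.84, -1.51]). The thinned share of cells with a Ccl4 UMI was 56.4%, 48.1%, 15.9% and 46.4%, the same library being lowest. Its partner Ccl3 read 391, 563, 174 and 328 CPM, and Cxcl16 762, 611, 278 and 742 CPM. Both were again lowest in late db/db.

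A group of ligands was highest in early db/db. The neutrophil attractant Cxcl2 read 218, 1026, 154 and 245 CPM (early against control 2.24) and its neighbour Cxcl1 read 7.73, 204, 39.8 and 28.4 CPM (4.72). The monocyte attractant Ccl2 read 38.7, 295, 15.6 and 20.3 CPM (2.93 [2.39, 3.52]). Ccl6 (214, 439, 84.6 and 207 CPM), Ccl9 (165, 344, 68.9 and 112 CPM), Cxcl10 (128, 284, 59 and 168 CPM) and Ccl5 (34.8, 262, 103 and 73 CPM) shared the early maximum. Ccl8 had 0 control UMIs and 358, 107 and 114 CPM in the other libraries, at least 92.7-fold, 27.6-fold and 29.4-fold higher. In early db/db 1 cell held 34.6% of the Ccl8 UMIs. Ccl12 was highest in the control, at 256, 137, 81 and 122 CPM.

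Cxcl9 and Cxcl14 had patterns of their own in macrophage-like cells. Cxcl9 read 1.29, 43, 240.2 and 12.2 CPM (late against control 7.54 [5.05, 12.85], on 1 control UMI), with 39.9% of the late UMIs in 1 cell, whereas its neighbour Cxcl10 was lower in late db/db than in the control (-1.11). Cxcl14 read 54.1 [39, 73.2], 301 [271, 334], 62.5 [50.2, 77] and 541 [478, 610.4] CPM. It was high in early db/db and in the intervention library (intervention against control 3.32 [2.85, 3.83]). The thinned share of cells with Cxcl14 was 5.13%, 31.5%, 6.19% and 41.7% (unthinned 22.9%, 39.7%, 11.8% and 60.8% at medians of 10450, 6345, 9367 and 5168 UMIs).

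Among receptors of macrophage-like cells, Cx3cr1 read 615 [561, 673], 264 [236, 295], 276 [249, 305] and 489 [429, 554] CPM in control, early, late and intervention. The early and late libraries were low (-1.22 and -1.16 against the control) and had overlapping intervals. Cxcr4 read 103, 302, 163 and 136 CPM. The CCL2 receptor Ccr2 (139, 148, 107 and 34.5 CPM) and Ccr1 (38.7, 58.8, 46.2 and 12.2 CPM) were lowest with intervention, by -2.01 and -1.67 against the control. Cxcr2 (0, 10.8, 57.6 and 2.03 CPM), Ccr7 (0, 17.4, 68.9 and 0 CPM) and Ccr9 (2.58, 3.31, 35.5 and 0 CPM) were highest in late db/db.

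The late macrophage-like cells lay in clusters 5 (75 cells) and 28 (52 cells), the latter led by genes that included Pla2g2d. In late cells of cluster 28 Cxcl9 read 624, Cx3cr1 445, Cxcl16 371 and Cxcr2 159 CPM. Beside these differences stood markers of other cells. The 5-gene neutrophil list summed to 27.1, 1053, 93.3 and 41.9 CPM in control, early, intervention and late macrophage-like cells (1, 5, 3 and 2 genes detected, Ly6g and Retnlg at 0 outside early db/db). The 7 acinar genes, all detected, summed to 178, 3311, 207 and 689 CPM in the same order, the 8 immediate-early genes to 4199, 9114, 4562 and 5724 CPM, and the 12 T and NK genes to 50.3, 84.4, 73 and 404 CPM. The duct list summed to 267, 132, 318 and 2256 CPM (4 or 5 of 8 genes, Sox9 and Cftr at 0 in each) and the fibroblast list to 11.6, 208, 6.08 and 23.5 CPM. The part of these markers was not tested.

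**Figure D3:**
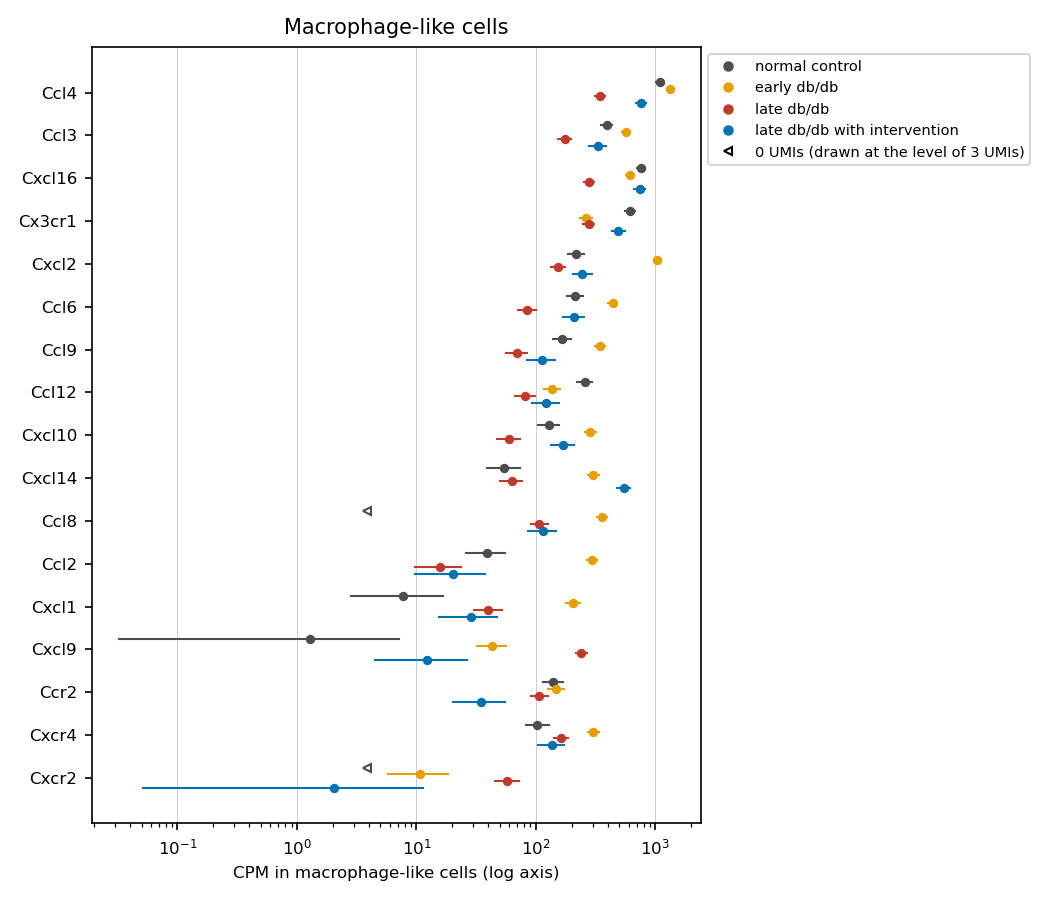
Levels of 17 members in macrophage-like cells (CPM, log axis), 1 point per library with exact Poisson 95% intervals and an open triangle for 0 UMIs. Ccl4, Ccl3 and Cxcl16 are lowest in late db/db (343, 174 and 278 CPM), Cxcl2 and Ccl2 stand out in early db/db (1026 and 295 CPM), and Cxcl14 is highest with intervention (541 CPM).

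Dendritic-like cells could be described in late db/db only, with 122 cells against 0, 4 and 3 in the other libraries. They held 57.0% of the late library's Ccl5 UMIs, at 10079.8 CPM [9898, 10265]. Ccl22, a CCR4 ligand, read 1169 CPM [1108, 1233], which was 94.3% of the library's Ccl22 UMIs, and Ccl17, the other CCR4 ligand, 383 CPM [348, 420.5]. Cxcl16 read 828 CPM. As receptor they carried Ccr7 at 1446 CPM [1377, 1517], and 87 of 110 thinned cells (79.1%) held a Ccr7 UMI, against 0.125% of thinned late beta-like cells. High Ccr7, Ccl22 and Ccl17 are known from mature, migrating dendritic cells.

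T and NK-like cells were numerous in late db/db (2197) and fewer in early db/db (124), and only these libraries reached 50 cells. Of 17 members that entered, 2 were at least 2-fold higher in late than in early db/db and 10 lower, where all genes gave 7.48% higher and 11.1% lower. Ccr7, the receptor that guides naive T cells, read 43 CPM [24.1, 70.9] in early and 275 [266, 284] in late db/db (2.68 [1.95, 3.51]). Thinned, 6.93% of early and 34.2% of late cells held a Ccr7 UMI, at unthinned medians of 2551.5 and 6133 UMIs. The second higher member was Ccl21a, at its background level.

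Several effector genes were lower in late db/db. Ccl5 read 6636 CPM [6369, 6912] in early and 564 [552, 577] in late db/db (-3.56 [-3.62, -3.49]). Xcl1, which draws cross-presenting dendritic cells, read 505 and 61.1 CPM (-3.05), with 35.2% of the early UMIs in 1 cell. In cells gated on Cd8 the order was the other way, at 25.9 CPM [3.13, 93.5] on 2 early UMIs and 97.8 [90.2, 106] in late db/db. The receptors of effector and tissue-resident T cells Cxcr6 (335 and 57.5 CPM, -2.54) and Cxcr3 (238 and 38.5 CPM, -2.63) were lower in late cells of the whole class, as was the monocyte receptor Ccr2 (163 and 13.6 CPM, -3.59). Ccl1 read 992 and 3.92 CPM, but 1 cell held 98.8% of the early UMIs. Cxcr4 (138 and 70.5 CPM), Ccr6 (31.5 and 37.2 CPM) and Ccr9 (25.8 and 34.9 CPM) were within 2-fold. The acinar list summed to 5587 CPM in early and 1029 in late T and NK-like cells (7 of 7 genes in both) and immediate-early genes to 5899.6 and 2646 CPM, and their part was not tested.

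Different clusters made up the T and NK-like cells of the 2 libraries. The early ones were in clusters 23 (48 cells), 22 (43) and 26 (20), and the late ones in clusters 18 (718), 22 (598), 25 (548), 26 (163) and 23 (123). Within cluster 23, Ccl5 read 14477 CPM in early and 7254 in late cells. Within cluster 22 it read 2236 and 190.1 CPM, so the early value was the higher in both. In late cells Ccr7 read 299 CPM in cluster 22 and 327 in cluster 25, Cxcr6 read 532 and Ccr6 489.9 in cluster 26, and Ccr9 read 66.2 in cluster 18. Cluster 26 was led by S100a4, Ltb, Il7r, Junb and Id2, with no Cd3 or Trbc gene among its 10 leading genes. Only 1 T and NK marker was among its 25 leading genes, so its cells need not be T or NK cells.

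Gates on single marker UMIs placed these genes within the late T and NK-like cells. The 828 cells with a Cd8 UMI and none of Cd4 or Foxp3 read 738 CPM for Ccl5, 298 for Ccr7, 97.8 for Xcl1 and 62.1 for Ccr9. The 565 cells with a Cd4 UMI and none of Cd8 or Foxp3 read 258 CPM for Ccr7, 98.1 for Ccr6 and 93.8 for Cxcr6, and the 206 with a Foxp3 UMI read 304 CPM for Ccr7. The 49 cells with Ncr1 or Klrb1c and no Cd3, Cd4 or Cd8 UMI read 5666 CPM for Ccl5, 744 for Xcl1 and 141 for Ccr6. NK cells pass this gate, but it does not show that all 49 were NK cells. The Cd4, Cd8 and Foxp3 gates did not require a Cd3 UMI, so they are not limited to T cells.

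B-like cells had the same main receptors in early (228 cells) and late db/db (1860 cells). Ccr7 read 366 CPM [326, 409] and 413 [398, 427], Cxcr4 232 and 193, Ccr6 121 and 138, and the follicular receptor Cxcr5 109.5 [88.3, 134] and 81.4 [75.1, 88] CPM. All 4 were within 2-fold (0.17, -0.27, 0.18 and -0.43). Of 12 members that entered, 5 were 2-fold or more above early in late db/db and 2 below, where all genes gave 9.76% and 3.87%. The higher ones were Ccl3 (4.76 and 37.2 CPM), Ccl4 (1.02 on the log2 scale), Cxcl13, Ccl5 and Ccl21a. Cxcl13 and Ccl5 had 1 early UMI each, and Ccl21a was at its background level. Ccr1 (33.3 and 11.6 CPM) was among the lower ones. The Ccl5 direction reversed without doublet removal (-0.77).

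**Figure D4:**
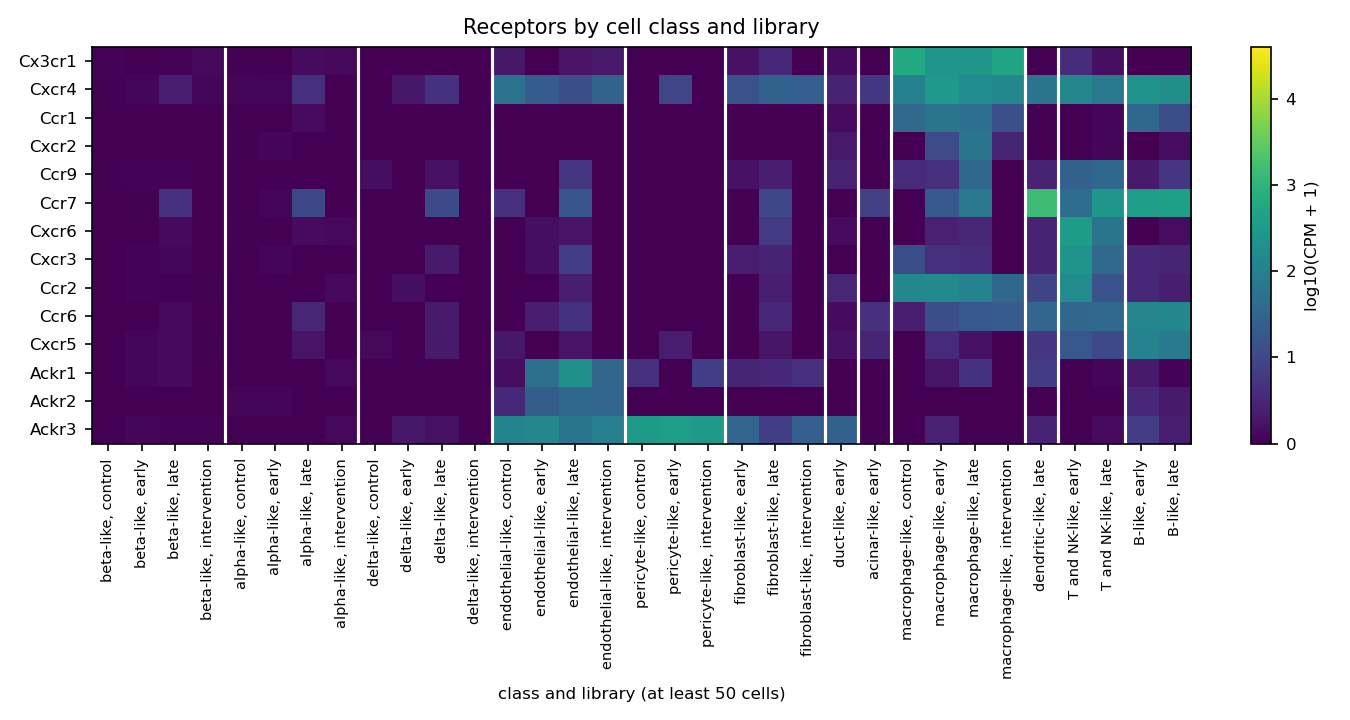
Levels of 14 of the 15 measured receptors and atypical receptors, as log10 of CPM plus 1, in each cell class and library with at least 50 cells, white lines separating classes. Cx3cr1 is bright in macrophage-like cells only (264 to 615 CPM), Ccr7 in late dendritic-like (1446 CPM), B-like and late T and NK-like cells, and Ackr3 in pericyte-like cells (307 to 367 CPM).

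The endocrine classes carried few members, at low levels. In beta-like cells (2249 control, 1659 early, 813 late, 3385 intervention) Ccl27a read 29.8, 17.6, 24.6 and 17.6 CPM, Ccl28, a mucosal ligand, 13.3, 20.5, 26 and 19.4 CPM, and Ccl25, the CCR9 ligand, 12.9, 16.5, 10.6 and 11.1 CPM. Of 4 members that entered, 1 was 2-fold or more above the control in late db/db and 0 below, where all genes gave 4.47% and 13.3%. The 1 higher member was Ccl21a at its background level. Ccl28 was close to the threshold (0.97 [0.79, 1.14]) and above it with all UMIs as denominator (1.62) or TMM scaling (1.28). In alpha-like cells Ccl27a read 49, 34.7, 47.6 and 45.2 CPM and Cx3cl1 22.5, 21.3, 26.5 and 23.8 CPM. Delta-like cells read 53.2, 34.7, 44.3 and 33 CPM for Ccl27a and 26.5, 26.7, 23 and 28.8 CPM for Cx3cl1.

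Pericyte-like cells (67 control, 211 early, 89 intervention, and 46 late cells, too few to compare) had the highest Ackr3 level of the classes compared, at 317, 367 and 307 CPM, while endothelial-like cells held more of its UMIs in the control (244 against 101) and in early db/db (276 against 266). Early db/db was high for Ccl11 (34.5, 537 and 84.1 CPM), Ccl19 (6.28, 290 and 99.2 CPM), Cxcl1 (0, 272 and 0 CPM) and Ccl2 (6.28, 144 and 6.01 CPM). Cxcl12 read 100.4, 200.2 and 201 CPM. Beside these, the fibroblast list summed to 712, 1326 and 962 CPM in the same order (3, 6 and 5 of 7 genes, Pdgfra at 0 in each), the acinar list to 392, 6881 and 174, and immediate-early genes to 5466, 10261 and 4388 CPM, and their part was not tested. In early db/db the 162 duct-like cells read 204 CPM for Cxcl16, 81.5 for Cxcl12, 69.1 for Cxcl1 and 32.7 for Ccl25, and no member reached the measured level in the 132 acinar-like cells.

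Ligand and receptor sources can be read together, as levels and not as contact. Of 32 listed ligand and receptor pairs, both partners had at least 10 UMIs in some class of 50 or more cells in 13 pairs in the control, 23 in early, 28 in late and 10 in intervention db/db, and the same class was highest for both in 9, 6, 8 and 6 of them. These counts move with the number of cells a library has in each class. The late same-class pairs included Xcl1 with Xcr1 and Ccl1 with Ccr8 in T and NK-like cells. Each of these receptors read 0.824 CPM there, on 12 UMIs. Clusters without a name did not enter the pairing, and late Xcr1 read 429 CPM in one of them, cluster 29. In late db/db Ccl21a was highest in fibroblast-like and Ccr7 in dendritic-like cells, Cxcl13 in fibroblast-like and Cxcr5 in B-like cells (81.4 CPM), and Cxcl12 in fibroblast-like and Cxcr4 in B-like cells (193 CPM). Cxcl16 was highest in dendritic-like and Cxcr6 in T and NK-like cells. In all 4 libraries Cx3cl1 was highest in endothelial-like (36.4 to 67.6 CPM) and Cx3cr1 in macrophage-like cells (264 to 615 CPM). Of the late library's UMIs, T and NK-like cells held 43.4% of Ccr7, B-like cells 34% and dendritic-like cells 18.1%, while B-like cells held 75.2% of Cxcr5 and T and NK-like cells 95.9% of Cxcr6 and 84% of Cxcr3.

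**Figure D5:**
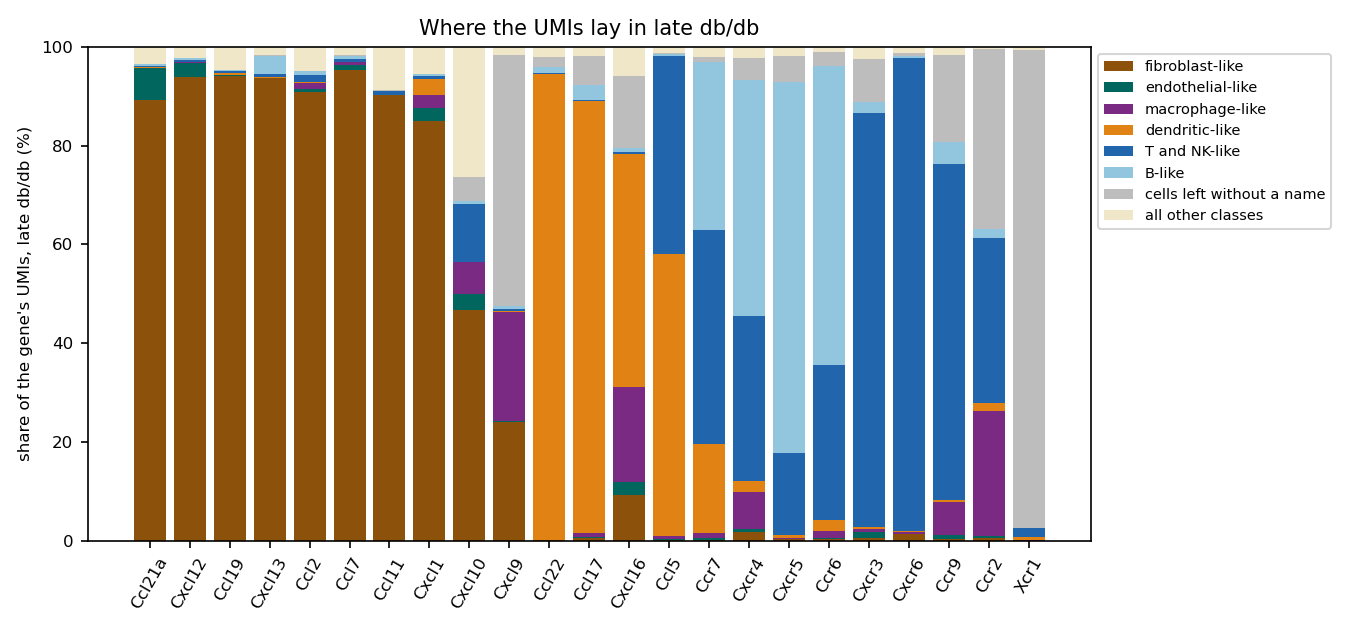
Share of each gene's UMIs (%) in late db/db by cell class, 1 stacked bar for each of 23 members. Fibroblast-like cells hold 89.2% of Ccl21a, dendritic-like cells 57.0% of Ccl5 and 94.3% of Ccl22, B-like cells 75.2% of Cxcr5 and T and NK-like cells 95.9% of Cxcr6.

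The wider pathway was read from 5 lists of 63 genes, chosen with earlier results of these data known. As with members, a listed gene could enter through the library where it was high. The list counts and medians below therefore follow in part from the entry rule. Over all kept cells in late db/db against control, 12 of 13 leukocyte adhesion and homing genes that entered were at least 2-fold higher and 0 lower (median log2 4.53, all genes -0.40, with 10.1% of all genes higher and 16.5% lower). Glycam1, which carries the L-selectin ligand of high endothelial venules, read 0.0365 and 768 CPM, the lymphocyte trafficking factor Klf2 81.2 and 583 CPM, and the P-selectin ligand Selplg 3.73 and 85.8 CPM. Of lymphotoxin and TNF genes 4 of 7 were higher and 0 lower (median 2.32), with Ltb, a subunit of the lymphotoxin that organises lymphoid stroma, at 1.61 and 299.9 CPM. Of interferon gamma genes 6 of 8 were higher (median 1.54), among them Cd74, the MHC class II chaperone (598 and 2742 CPM, log2 2.20). Receptor signalling genes gave 8 higher and 1 lower of 15, the lower being Rgs2, a regulator of G protein signalling (514 and 254 CPM). Genes that clear or anchor chemokines gave 1 higher and 1 lower of 6, near the shares over all genes.

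In late against early fibroblast-like cells, 8 of 10 lymphotoxin and TNF genes were higher and 0 lower (median 1.75, all genes -0.06, with 10.7% of all genes higher and 10.5% lower). Il7, a survival factor for naive T cells made by reticular stroma, read 11.9 and 204 CPM (4.10), and Relb, the transcription factor of the non-canonical pathway, 42.3 and 106 CPM (1.33). Of 4 homing genes that entered 2 were higher, with the adhesion molecule Vcam1 at 156 and 785 CPM (2.33), and of 8 interferon gamma genes 3 were higher. Hspg2, the proteoglycan perlecan among the anchoring genes, was lower (297 and 101 CPM, -1.55). In macrophage-like cells early db/db was set against the control. Tnf read 397 CPM in early db/db and 85.1 in the control, and Vcam1 423 in early db/db and 23.2 in the control. Cd74 was lower in early db/db, at 17482 CPM against 41006 in the control (-1.23). Lymphotoxin and TNF genes gave 4 higher and 1 lower of 9, homing genes 3 and 0 of 8. Interferon gamma genes gave 2 higher and 1 lower of 8, the lower being Cd74. The list medians were 0.99, 0.31 and 0.09, against 0.17 over all genes, of which 10.9% were higher and 3.23% lower.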

How the data were processed

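Single-cell RNA of islet cells was measured in 4 libraries with 10x 3′ v3 chemistry, per the labels' protocols. The submitters' processing notes name CASAVA 1.8, Cell Ranger, Seurat and build mm10, and the deposited values are UMI counts per gene and cell, unnormalized, per the file headers (software version 3.0.0). Cells with at least 1000 UMIs, 500 genes and at most 20% mitochondrial UMIs were kept. The automatic threshold of scrublet marked 0.0391% of the intervention cells, so the highest-scoring 0.8% per 1000 cells were removed instead (171, 184, 318 and 209 cells in control, early, late and intervention).

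Cells were clustered with scanpy 1.11.5 (2000 variable genes without members, 30 components, Leiden resolution 1) and named from fixed markers, 4 of 39 clusters staying without a name. A rule that splits a mixed endocrine cluster again was set after seeing the data. UMIs were summed per class and library and divided by all UMIs except mitochondrial and 7 hormone genes. Intervals are 95%: exact Poisson for levels, exact conditional binomial for ratios, Clopper-Pearson for shares. A library at 0 enters a ratio with a floor of 3 UMIs per library. PCR duplicates are removed by UMIs, and spread between animals is unknown. Ratios were checked on simulated data.

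Members, lists and comparisons were chosen with earlier results of these data known. Described were, per class, the 5 members highest in CPM and, per comparison, up to 10 members at least 2-fold apart with most UMIs, besides pathway genes with most UMIs. Motifs and sequence identity used biopython 1.88, TMM factors edgeR 4.0.16. The alternatives were 10 planned ones and 2 chosen after seeing the data. The file name of early db/db reads like a control, and the sample's own label was followed. Counts cover all members, while a few genes are not reported here by name.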

Additional observations from a re-analysis of the deposited data

Results flagged for a closer look

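In macrophage-like cells 4 ligands lay above the control in early db/db and below it in late db/db, and the difference between those effects was not tested. The log2 ratios to the control were 2.93 and -1.31 for Ccl2, 1.04 and -1.34 for Ccl6, 1.06 and -1.26 for Ccl9, and 1.15 and -1.11 for Cxcl10. Both ratios of a gene share the control library. In each comparison 23 members entered, and of all genes 10.9% were 2-fold higher in early and 4.57% 2-fold lower in late db/db. Only members were searched for opposite directions, so the 4 have no share over all genes beside them. Cxcl16 in late db/db lay above the control in endothelial-like cells (1.27) and below it in macrophage-like cells (-1.45), again untested. The endothelial-like direction reversed under 3 settings (-0.15, -0.09 and -0.15). Of the Cxcl16 UMIs of its cluster 12, 86% (37 UMIs) lay in 21 cells with a Prox1 UMI.

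Members were also measured in a cluster that stayed without a name and so entered the comparisons over all cells but none within a class. Cluster 29 had 68 late, 19 early, 7 intervention and 0 control cells, and Cd74 and Irf8 were among its leading genes. In late db/db it read 508 CPM for Cxcl9, 429 for Xcr1, 191 for Cxcl16 and 136 for Ccr2. Its 19 early cells read 829 CPM for Ccl17, 796 for Ccl4, 461 for Ccr2 and 198 for Xcr1. Xcr1 is the receptor of Xcl1 and is known from cross-presenting dendritic cells.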

How the results depend on the processing

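In the comparisons for which counts of members 2-fold apart are given above, 141 ratios were at least 2-fold. The 10 alternative settings that can change a ratio gave 913 values for them, of which 891 kept their direction and 860 stayed at least 2-fold. Ratios of other comparisons were not rerun under these settings. Of the 141 ratios, 116 stayed 2-fold under every such setting run for them. Reversed were endothelial-like Cxcl1 in late against control (-0.52 with the stricter cell filter, -0.46 without doublet removal, -0.52 with members in the clustering, -0.37 with gated classes) and Cxcl16 (-0.15, -0.09 and -0.15 under the first 3), fibroblast-like Ccl5 in late against early (-2.0 without doublet removal, -1.53 with free RNA subtracted), B-like Ccl5 in late against early (-0.77 without doublet removal) and macrophage-like Ccl5 in late against control (-0.24 with gated classes). The cause was not tested.

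Counts of members 2-fold apart moved by over 1.5 times as follows. Each count is given with the members that entered. With all UMIs as denominator the counts were 16 of 17 instead of 25 of 28 (all cells, late against control) and 9 of 10 instead of 14 of 20 (early against control). For beta-like cells the count was 2 of 3 instead of 1 of 4. All genes gave 1564 higher and 214 lower of 7638, 655 and 229 of 6811, and 887 and 163 of 6020 under that scaling. That scaling moved the median of all genes in late against control from -0.40 to 0.43, and TMM moved it to 0.02. With TMM the beta-like count was 2 of 4, where all genes gave 679 higher and 570 lower of 9203. With no entry filter the counts over all cells were 45 of 55 (late against control), 40 of 53 (early against control) and 41 of 55 (intervention against late). All genes gave 3835 higher and 3716 lower of 22034, 3433 and 2459 of 21283, and 2630 and 3574 of 22118. By class the counts were 26 of 47 (beta-like), 22 of 42 (endothelial-like), 12 of 34 (macrophage-like, intervention against control), 23 of 43 (fibroblast-like) and 12 of 41 (B-like). All genes gave 2445 higher and 2809 lower of 19250, 1913 and 1543 of 15211, 1620 and 692 of 13140, 1883 and 1965 of 15964, and 1334 and 1435 of 15658. At 50 CPM and 50 UMIs the counts were 6 of 6, 3 of 3 and 6 of 6 over all cells. All genes gave 375 higher and 659 lower of 4229, 237 and 422 of 4135, and 290 and 397 of 3807. By class they were 0 of 0 (beta-like), 3 of 6 (endothelial-like) and 1 of 5 (B-like). All genes gave 194 higher and 493 lower of 4191, 368 and 353 of 4005, and 135 and 110 of 2748. Without doublet removal the counts were 2 of 5 (beta-like) and 23 of 29 (fibroblast-like). All genes gave 483 higher and 1236 lower of 9510, and 1413 and 957 of 9755. With gated classes the count was 4 of 7 (endothelial-like, all genes 478 higher and 605 lower of 8333). With free RNA subtracted it was 0 of 3 (beta-like, all genes 409 and 1284 of 9386). With the mixed cluster not split it was 2 of 5 (beta-like, all genes 464 and 1297 of 9493). With clusters mostly from late db/db left out the counts were 2 of 5 (endothelial-like) and 11 of 20 (macrophage-like, late against control). All genes gave 308 higher and 501 lower of 8057, and 873 and 332 of 5910. Too few cells were left for fibroblast-like cells under that last setting and for macrophage-like late against control without doublet removal. Settings of clustering, gating and free RNA do not enter sums over whole libraries.

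Of the 12 members below the measured level, Xcr1 had 746 UMIs, mostly in a cluster without a name, and the others fewer. Ratios on 1 to 3 control UMIs have wide intervals. With 1 library per group, no setting replaces a second animal.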

Other observations

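Some late db/db values lay in classes under 50 cells and entered no comparison. The 46 late pericyte-like cells read 5342 CPM for Ccl21a, with 97.9% of those UMIs in 5 cells. The 24 late duct-like cells read 527 CPM, with 96.2% in 1 cell. Late plasma-like cells, 24 in number, held 19.1% of the library's Cxcl10 UMIs, and 1 cell held 83.3% of these.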
